A study of Rattus norvegicus with 4 samples.

Results

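The NLRP3 inflammasome and its triggers were described in NR8383, an established macrophage line from rat lung lavage, after 4 h with carbon black. The 10 genes were taken by symbol, as the sensor, the adaptor, the caspases, the pore-forming effector, the ATP-gated triggers and other partners of the complex. They were chosen with earlier results of these data known. Array probes were assigned to them through the accession that each probe carries. Of the 10, 9 had a probe among the 16581 named genes on the array, with 11 probes in all, and Gsdmd had none that could be matched. The only group analysed here was 4 biological replicates exposed to Printex 90, a carbon black of aggregated nanoparticles, at 0.9 cm2/cm2, each on its own 1-colour array. The labels give 20 passages and 48 h of seeding before exposure. Cells incubated without particles, which the series sets out to compare, were not analysed here, so no value below is a change caused by carbon black.

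NLRP3 is a cytosolic sensor that assembles into a ring-like complex when a cell is damaged, when potassium leaves it, or when particles rupture its lysosomes. NEK7, a kinase, bridges NLRP3 molecules, the adaptor ASC (gene Pycard) polymerises on the ring, and caspase-1 is activated on ASC. Caspase-1 cuts the precursors of interleukin-1beta and interleukin-18 and opens gasdermin D, whose pores release the cytokines and can end in pyroptosis, a lytic cell death. In macrophages the complex is a textbook sensor of inhaled particles, and it usually needs a priming signal through NF-kappaB first.

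Levels are given as log2 of the processed intensity minus the 75th percentile of the same array over all probes, so that 0 is that percentile. They follow the signal of 1 probe across arrays, and the order of levels between genes has no meaning. A gene counted as detected on an array where the scanner software marked its signal as well above background. The lowest processed intensity with that mark was 22.3, 11.3, 10.8 and 12.1 on replicates 1 to 4. The 99th percentile of negative control spots was 27.1, 7.40, 4.95 and 6.25, so background was highest on replicate 1. No spot was saturated. All 8 macrophage markers checked, among them Cd68, Ptprc and Spi1, were detected on all 4 arrays. Of 26 measured markers of epithelium, lymphocytes, granulocytes, fibroblasts and endothelium, 19 were detected on no array. S100a8 and Cdh5 were detected on some arrays, and Cd3d, Pax5, Dcn, Pecam1 and Vwf on all, which makes 5.

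The measured core of the complex had signal in every replicate, and detection was divided among its ATP-gated triggers. Nlrp3, Nek7, Pycard, Casp1, Casp4 and P2rx4 were detected on all 4 arrays. Txnip was detected on 1 array, and P2rx7 and Panx1 on none. That is 6 of 9 measured genes on all arrays, against 48% of all named genes, and 2 of 9 on no array, against 44% of all named genes. The numbers are too small for these shares to be read as different.

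**Figure D1:**
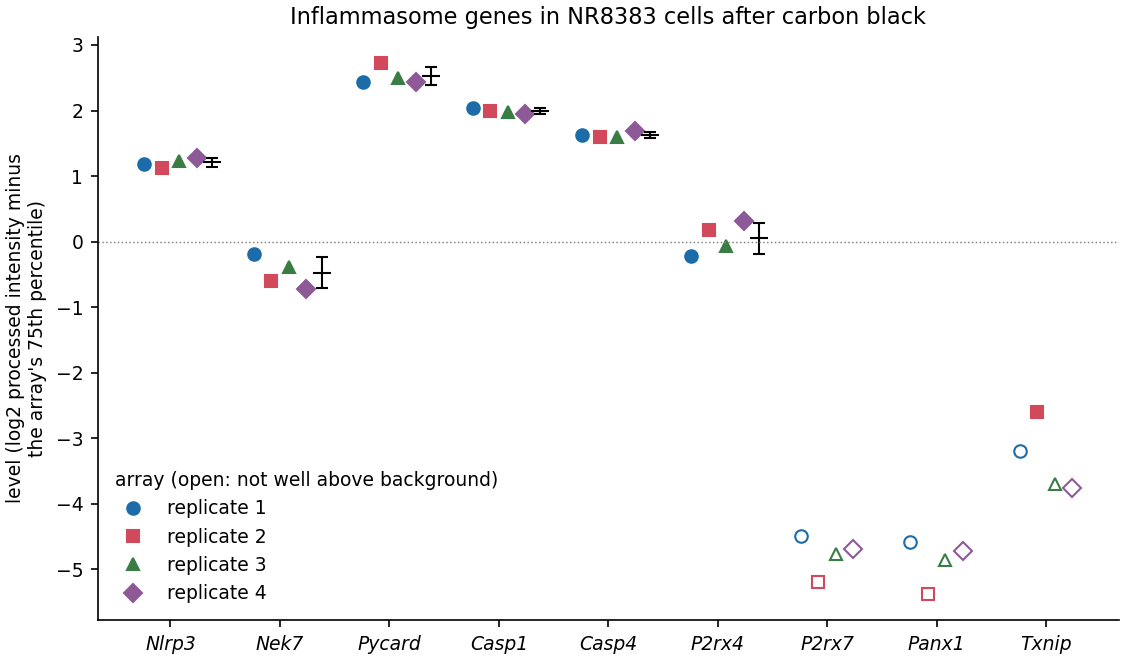
Level of each gene (log2 processed intensity minus the array's 75th percentile) on each of the 4 arrays, with filled symbols for values well above background and open symbols for values that are only bounds. Black bars give the mean and SD over 4 arrays for the 6 genes detected on all arrays, and P2rx7 and Panx1 have open symbols on every array. Heights of different genes are not comparable.

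The sensor gene Nlrp3 was detected by all 3 of its probes on all 4 arrays. Its brightest probe, A_44_P1109874, annotated to the transcript model XM_006246453, had processed intensities of 249, 204, 150 and 155 on replicates 1 to 4. After scaling, its levels were 1.19, 1.12, 1.24 and 1.28, with a mean of 1.21 ± 0.069 (SD, n = 4). The 4 replicates lay within 0.16 log2 units of each other. The other probes, A_44_P1109879 and A_44_P281733, both annotated to NM_001191642, were dimmer and less even. The first had levels of -0.72, -1.78, -1.27 and -0.80, with an SD of 0.49. The second had levels of -0.66, -1.32, -1.12 and -1.22, with an SD of 0.29. Both dim probes were highest on replicate 1 and lowest on replicate 2. They lay 0.42 above their own mean on replicate 1, where the deviation of the brightest probe was -0.017. With normexp background correction, which adds 50 to each intensity, A_44_P1109879 was highest on replicate 4 instead. The brightest probe was then highest on replicate 1, at 0.14 above its mean. The dim probes A_44_P1109879 and A_44_P281733 lay 0.11 and 0.17 above theirs there. The contrast between the probes on replicate 1 was thus not seen with normexp, whose offset narrows log2 differences of dim probes by construction. It remained with the percentile over all spots, quantile normalization and the percentile over detected probes. In that order, the brightest probe lay 0.018, 0.024 and 0.032 above its mean on replicate 1. A_44_P1109879 lay 0.46, 0.38 and 0.47 above its own, and A_44_P281733 0.46, 0.39 and 0.47. On replicate 1 negative controls were also brightest, and the part of that background in the dim probes' values was not tested. The intensities of the dim probes were only 2.42 to 3.03 and 2.27 to 3.33 times the lowest intensity marked well above background on the same array, against 11.2 to 18.0 times for the brightest probe. With the mean over the 3 probes in place of the brightest, the SD of Nlrp3 rose from 0.069 to 0.25.

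**Figure D2:**
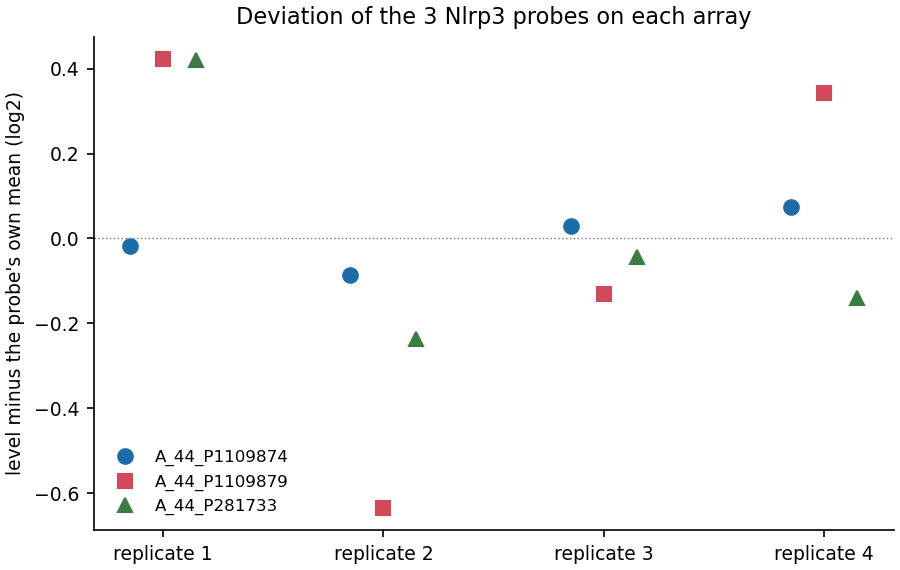
Level of each of the 3 Nlrp3 probes minus that probe's own mean over the 4 arrays, in log2 units, by replicate. A_44_P1109874 stays within 0.087 of its mean on every array, while both dimmer probes lie 0.42 above theirs on replicate 1 and below theirs on replicate 2. With normexp background correction, not shown, the contrast on replicate 1 was not seen, while it remained with the other scalings.

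Nek7 encodes the kinase that binds NLRP3 and is required for its assembly in macrophages. Its processed intensities were 95.6, 61.9, 48.5 and 38.6 on replicates 1 to 4, and its levels -0.19, -0.60, -0.39 and -0.73, with a mean of -0.48 ± 0.24 (SD, n = 4). It was highest on replicate 1 and lowest on replicate 4, by 0.54 log2 units. The SD was 0.096 with normexp background correction, whose added 50 narrows log2 differences of dim genes by construction. The lowest array was then replicate 2. Its relatives Nek6 and Nek9, which act in mitosis, were also detected on all arrays.

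The adaptor gene Pycard had processed intensities of 587, 617, 359 and 346. Its levels were 2.43, 2.72, 2.49 and 2.44, with a mean of 2.52 ± 0.14 (SD, n = 4). Replicate 2 was highest and the other 3 lay close together. The coefficient of variation of the scaled intensity between arrays was 9.85%. The SD was 0.036 without replicate 2 and 0.20 with normexp background correction.

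Casp1, whose product is the protease that the complex activates, had processed intensities of 450.05, 373, 249.9 and 245. Its levels of 2.04, 1.99, 1.97 and 1.94 gave a mean of 1.99 ± 0.043 (SD, n = 4). Casp4, which encodes the inflammatory caspase called caspase-11 in rodents and binds bacterial lipopolysaccharide in the cytosol, had intensities of 335, 284, 192 and 205. Its levels of 1.62, 1.60, 1.59 and 1.68 gave a mean of 1.62 ± 0.043. Neither gene stood apart on any array, and the highest and lowest arrays differed by 0.10 log2 units for Casp1 and 0.095 for Casp4. Before scaling, the SD of log2 intensity was 0.43 and 0.38, so most of the difference between raw intensities was shared with the array as a whole. The coefficient of variation of scaled intensity was 3.00% for Casp1, 2.98% for Casp4 and 4.74% for the brightest Nlrp3 probe. These spreads move with the processing and with single arrays. The SD of Casp1 was 0.13 with normexp background correction, 0.076 with the percentile taken over detected probes and 0.025 without replicate 1. The SD of Casp4 was 0.093 with the percentile over detected probes and 0.016 without replicate 4. That of the brightest Nlrp3 probe was 0.046 without replicate 2 and 0.12 with the percentile over detected probes. In the RefSeq table of assembly GRCr8, Casp4 follows Casp1 and is followed by Casp12 among named protein-coding genes, and all 3 of these neighbouring caspase genes were detected on all arrays.

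P2rx4 and P2rx7 encode ATP-gated cation channels of the P2X family. The P2X7 receptor is the classical trigger of NLRP3, opened by high extracellular ATP and followed by loss of potassium, and the P2X4 receptor responds to lower ATP and is abundant on lysosomes. P2rx4 had processed intensities of 93.9, 105, 60.6 and 79.0, and levels of -0.22, 0.17, -0.071 and 0.31, with a mean of 0.048 ± 0.24 (SD, n = 4). Replicate 4 was highest and replicate 1 lowest. The SD was 0.15 with normexp background correction, whose offset narrows differences at such intensities. P2rx7 had intensities of 4.87, 2.55, 2.33 and 2.47, all below the 99th percentile of negative controls on the same array. It was not well above background on any array, so its levels of -4.49, -5.20, -4.77 and -4.69 are only bounds. A weaker mark of the software, for signal that is positive and significant against background, was set for P2rx7 on replicate 2 alone. Among named protein-coding genes of the RefSeq table, P2rx7 follows P2rx4 directly. Of the 7 P2X receptor genes, P2rx4 was detected on all arrays and the other 6 on none. Panx1, which encodes a large-pore channel that releases ATP from the cell, had intensities of 4.56, 2.26, 2.19 and 2.41, and was not well above background on any array. Nor were Panx2 and Panx3, its relatives.

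**Figure D3:**
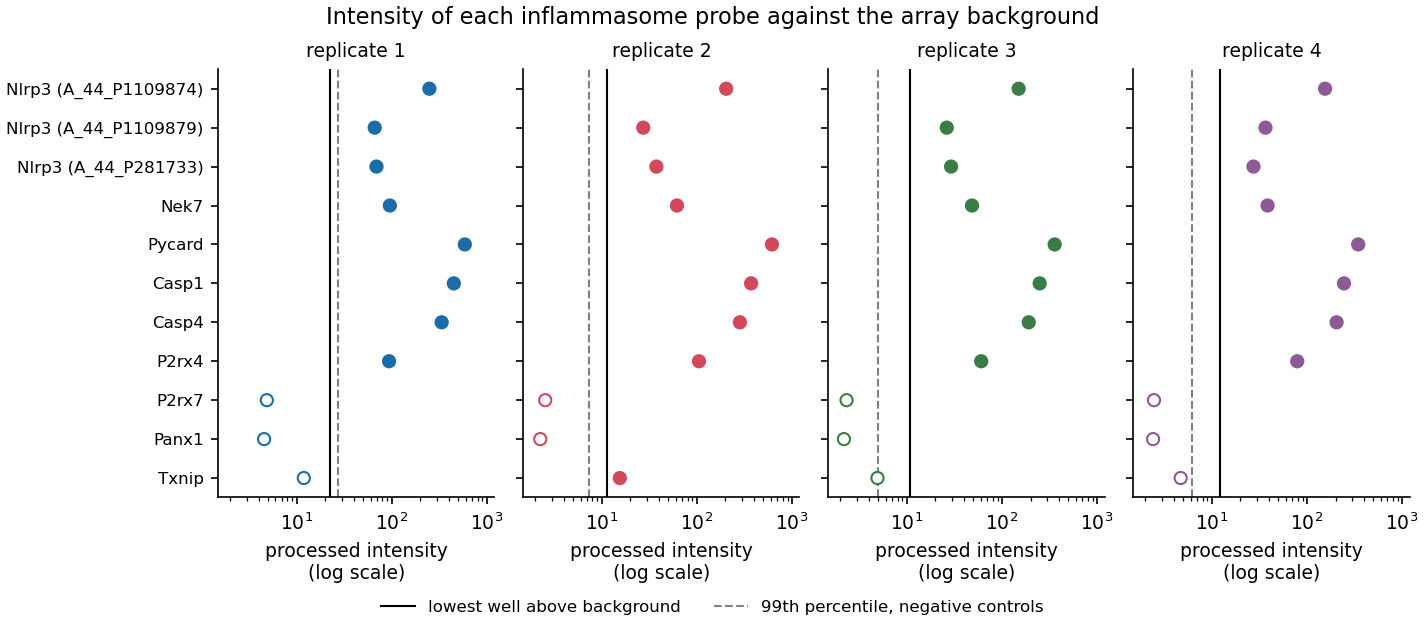
Processed intensity (log axis) of each of the 11 probes on each array, with the lowest intensity marked well above background (solid line) and the 99th percentile of negative control spots (dashed line). P2rx7 and Panx1 lie left of both lines on all 4 arrays, and Txnip lies right of them on replicate 2 only.

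P2rx7 and Panx1 each had 1 probe with 1 spot, and the signal of a transcript form that the probe does not cover would not be seen. A signal below the marked range is not evidence that the gene is silent. The software's error for these spots was 96.9% to 100% of the value, against at most 12.0% for the 6 genes detected on all arrays, as read from the probe used for each.

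Txnip encodes thioredoxin-interacting protein, an arrestin that binds thioredoxin and has been described as a partner of NLRP3 under oxidative stress. Its intensities were 11.9, 15.5, 4.92 and 4.71, and only that on replicate 2 was well above background. The intensity on replicate 1 was above the lowest marked value of replicates 2 and 3 but below that of its own array, where background was higher. Its level was -2.59 on replicate 2, and the levels of -3.19, -3.69 and -3.76 on the other arrays are bounds. Under the weaker mark Txnip had signal on all 4 arrays, which would bring the number of detected genes to 7 of 9.

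The stretch before the annotated start is shown for 2 genes detected on all arrays and 2 detected on none, so that the regions can be read side by side. RefSeq promoter entries of build GRCr8 were matched for 7 of the 10 genes. Only the part outside the gene's own span was kept, and the entries of Nlrp3, Casp1 and P2rx4 left too little outside it to show. Capitals mark matches on either strand to the GC box (GGGCGG) or the CCAAT box (CCAAT), which do not overlap here.
Pycard, chr1:192033420-192033669, minus strand: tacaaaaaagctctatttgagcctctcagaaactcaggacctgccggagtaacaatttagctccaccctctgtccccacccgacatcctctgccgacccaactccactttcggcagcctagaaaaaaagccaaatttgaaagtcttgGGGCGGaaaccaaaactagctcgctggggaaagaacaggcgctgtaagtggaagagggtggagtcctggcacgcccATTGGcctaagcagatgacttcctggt
Nek7, chr13:52700870-52701073, minus strand: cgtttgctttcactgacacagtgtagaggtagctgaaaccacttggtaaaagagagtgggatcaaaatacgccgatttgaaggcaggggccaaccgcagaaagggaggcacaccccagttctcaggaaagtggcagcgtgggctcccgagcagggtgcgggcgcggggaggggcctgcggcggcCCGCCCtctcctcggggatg
P2rx7, chr12:39594985-39595172, minus strand: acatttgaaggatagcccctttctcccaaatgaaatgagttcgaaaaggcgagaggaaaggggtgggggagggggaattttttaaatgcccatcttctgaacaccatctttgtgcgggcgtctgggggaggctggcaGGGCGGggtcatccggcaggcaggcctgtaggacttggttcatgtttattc
Panx1, chr8:20171201-20171450, minus strand: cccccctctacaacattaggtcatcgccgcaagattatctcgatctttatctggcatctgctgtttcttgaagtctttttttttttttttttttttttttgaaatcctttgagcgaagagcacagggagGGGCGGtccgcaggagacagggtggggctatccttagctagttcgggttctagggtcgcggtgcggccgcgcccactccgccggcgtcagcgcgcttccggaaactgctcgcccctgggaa
Each of the 4 stretches held 1 GC box match, and Pycard held 1 CCAAT match. Of 33469 promoter entries, 30.5% held a GC box within the same 250 bases as Pycard and Panx1, 24.8% within the 204 bases shown for Nek7 and 22.2% within the 188 shown for P2rx7. A CCAAT match was present in 11385 of the 33469 entries over 250 bases. Neither the TATA box (TATAAA), the AP-1 motif (TGANTCA) nor the NF-kappaB motif had a match in these windows. Over 250 bases, 12.9% of all entries held a TATA box, 6.34% an AP-1 motif and 3.54% an NF-kappaB motif. Most entries thus lack each of them, and their absence here is not a result about these genes. The GC box was thus present in the genes with signal and in those without.

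The spread between replicates was then tested against that of genes of like level. In each of 14927 genes with the mark on 2 or more arrays, the variance between the 4 arrays was compared with limma's fitted prior in a one-sided F test. Of the 14927, 69 (0.462%) passed at an adjusted p of 0.05, and 757 (5.07%) had an unadjusted p under 0.05. Of the 69, 60 had their lowest level on replicate 1, and the share over all tested genes was not counted. The number that passed depends on the scaling. It was 1 with quantile normalization and 0 with the percentile over detected probes. None of the 6 tested genes of the complex passed, with adjusted p between 0.987 and 0.994 (limma), and 0 had an unadjusted p under 0.05. Over the 13 alternative settings their adjusted p lay between 0.933 and 0.998. Their median SD was 0.103, against 0.161 over all tested genes. Nlrp3, Casp1, Casp4 and Pycard had an SD below that of genes of like level, at 0.43, 0.29, 0.28 and 0.96 times the fitted value. Nek7 and P2rx4 had 1.06 and 1.23 times the fitted value. The test asks only for an excess of spread, so a small SD is a description. With 4 arrays it has little power to find even a large excess, so a gene that did not pass is not shown to vary like other genes. The median deviation of the 6 genes from their own means was -0.010, -0.0092, -0.021 and 0.0076 on replicates 1 to 4, beside -0.045, 0.069, 0.015 and -0.024 over all tested genes.

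**Figure D4:**
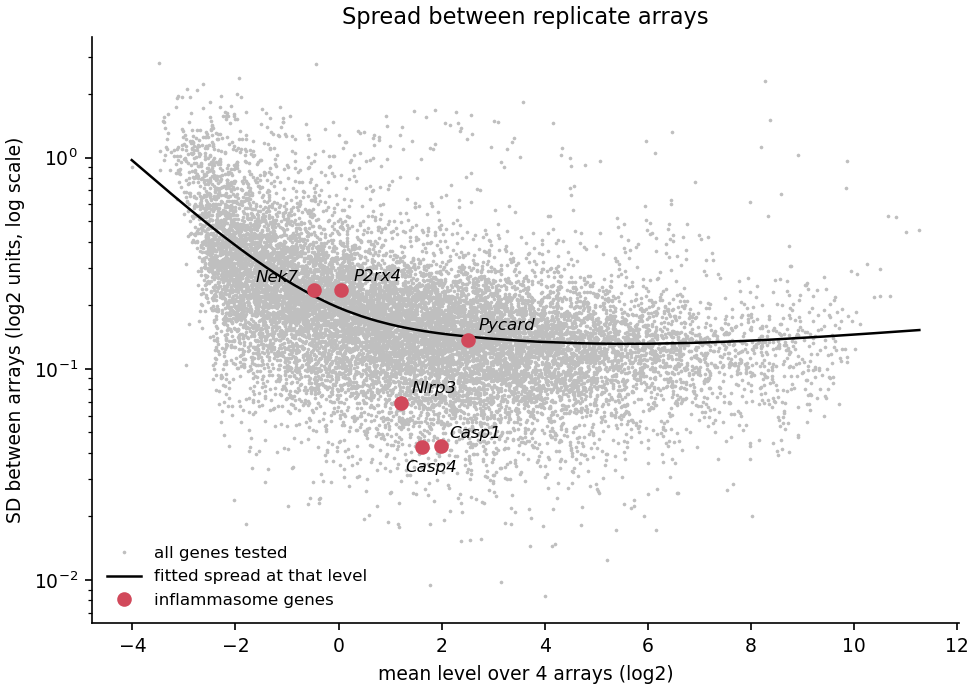
SD between the 4 arrays (log2 units, log axis) against mean level for all 14927 tested genes (grey), with the spread fitted at that level (black line) and the 6 inflammasome genes detected on all arrays (red). Casp1, Casp4 and Nlrp3 lie well below the line, and Pycard, Nek7 and P2rx4 lie close to it.

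Genes that act around the complex were counted on 8 lists of 99 genes, of which 85 had a probe. Of the 85, 66 (77.6%) were detected on every array, 1 on part of them and 18 on none. Over all named genes 48% were detected on every array and 44% on none, and the counts of each list below are to be read beside these shares. On these lists 0 of the 66 tested passed the variance test (limma), beside 0.462% of all tested genes. Ninj1, Txnrd1, Tlr4 and Nfkbia, 4 of the 66, had an unadjusted p under 0.05 (limma), beside 5.07% of all tested genes. These counts are too small to be read as different from those shares.

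Of 7 other sensors measured, Nlrp1a, Nod1 and Nlrx1 were detected on all arrays, and Mefv, Nlrp6, Nlrp12 and Nlrp10 on none. Nlrp1a, a sensor of proteolytic attack, had levels of -1.31, -0.86, -1.34 and -1.27. Nod1, a receptor for bacterial peptidoglycan, had a mean level of 5.90 ± 0.100 (SD, n = 4), and the mitochondrial family member Nlrx1 5.22 ± 0.21. For 8 of the 15 sensors listed, including Nlrc4, Aim2 and Nod2, no probe could be assigned.

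The list of cytokines released by inflammasomes and of their inhibitors also holds Il33. Of its 6 measured genes, 5 were detected on all arrays. They were Il1b, Il18 and Il1a and the antagonist genes Il1rn and Il18bp, while Il33, an alarmin gene, was detected on none. Il1b, the main substrate of caspase-1, had levels of 4.08, 3.98, 4.22 and 4.23, with a mean of 4.13 ± 0.12 (SD, n = 4). Il18, the second substrate, had levels of 3.36, 3.86, 3.59 and 3.46, with a mean of 3.57 ± 0.21, and Il1a, an alarmin released on membrane damage, 4.54, 4.04, 4.19 and 4.30, with a mean of 4.27 ± 0.21. Il1b was lowest on replicate 2, where Il18 was highest. Of 8 measured effectors of lytic and apoptotic death, 7 were detected on all arrays and Gsdme, a gasdermin cut by caspase-3, on none. Ninj1, which ruptures the plasma membrane in the last step of pyroptosis, had levels of 3.63, 4.42, 4.35 and 4.47. Casp8, an initiator caspase, had 1.31 ± 0.075 and Casp12 -0.79 ± 0.20.

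The list of kinases, ligases and chaperones around NLRP3 also holds Nek6 and Nek9, relatives of Nek7, and GTPase genes such as Gbp2. Of its 15 measured genes, 14 were detected on all arrays and the ligase gene Trim31 on 1. Brcc3, which removes ubiquitin from NLRP3, had a mean level of 2.25 ± 0.099 (SD, n = 4), Nek6 3.44 ± 0.19 and Nek9 5.85 ± 0.11. Of 18 measured purine receptors, ATP-handling genes and ion channels, 11 were detected on all arrays, and the 7 others, all P2X receptors or pannexins, on none. P2ry2, a G protein-coupled ATP receptor, had levels of 3.53, 4.01, 3.84 and 4.12. The ectonucleotidase genes Entpd1 and Nt5e, which break ATP down to adenosine, had mean levels of 0.48 ± 0.16 and 1.88 ± 0.087.

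Of 10 measured partners and relatives of TXNIP, 7 were detected on all arrays, and Arrdc2, Arrdc3 and Mlxipl on none. Txn1 encodes thioredoxin and had a mean level of 9.56 ± 0.12 (SD, n = 4), with Txn2, its mitochondrial form, at 4.29 ± 0.16. Txnrd1, the reductase that recharges thioredoxin, had levels of 2.38, 3.07, 2.95 and 3.34, lowest on replicate 1. It had an unadjusted p of 0.012 and an adjusted p of 0.505 (limma). Of 9 measured lysosome and particle uptake genes, 8 were detected on all arrays and the scavenger receptor gene Marco on none. Ctsb, a lysosomal protease linked to NLRP3 activation by particles, had a mean level of 9.32 ± 0.10, Ctsl 2.83 ± 0.098 and Ctsz 6.88 ± 0.18.

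Of 12 measured genes of Toll-like receptor and NF-kappaB signalling, 11 were detected on all arrays and the kinase gene Irak4 on none. Tlr2, a receptor for bacterial lipoproteins, had levels of 4.38, 4.53, 4.68 and 4.91, and Cd14, a co-receptor for lipopolysaccharide, 0.66, 0.77, 0.82 and 1.01. Tlr4, the lipopolysaccharide receptor, had levels of 0.68, 0.18, 0.065 and -0.68, highest on replicate 1, where Tlr2 and Cd14 were lowest. Its adjusted p was 0.496 (limma).

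**Figure D5:**
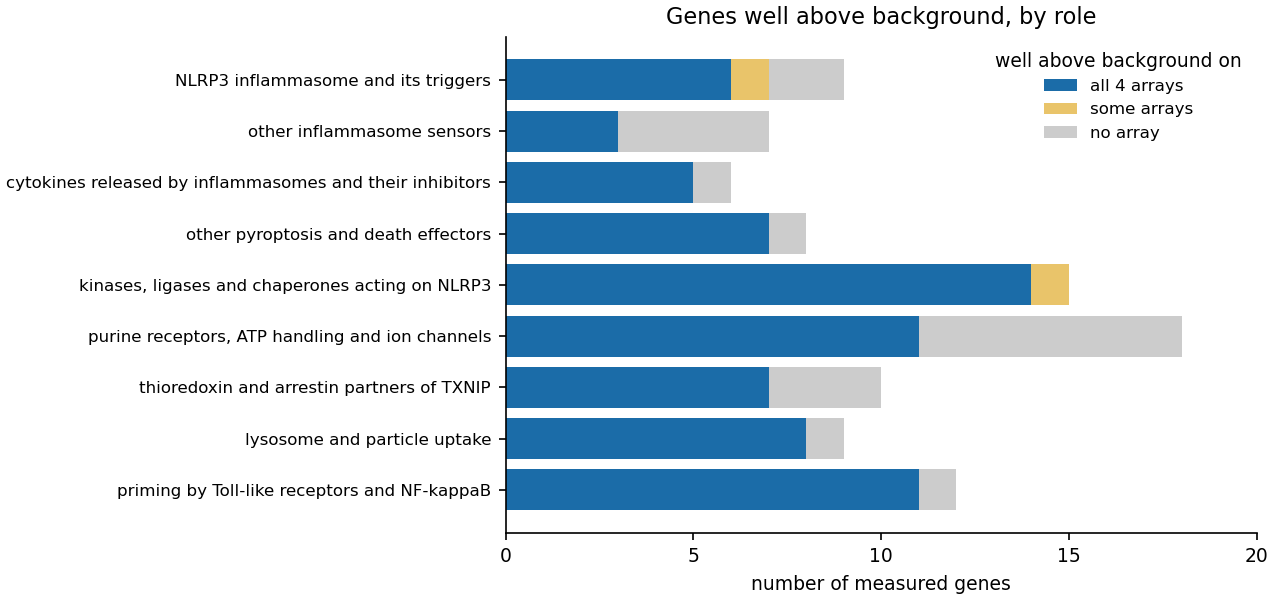
Number of measured genes detected on all 4 arrays (blue), on some (yellow) or on none (grey), for the inflammasome genes and for each of the 8 surrounding lists. Detected on no array were 7 of 18 genes on the list of purine receptors and channels and 4 of 7 other sensors. On the list of kinases, ligases and chaperones it was 0 of 15, beside 44% of all named genes.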

How the data were processed

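RNA of 4 biological replicates of exposed cells was hybridised to 1-colour Agilent rat arrays. The deposited files hold spot intensity on a linear scale from Agilent Feature Extraction 11.0.1.1, from which background and spatial trend had been removed array by array, with no normalization between arrays, per the file headers. The 0 or 1 marks for signal above background are other values that the software deposited with each spot, per the file headers. From these, log2 intensities of a probe's spots were averaged, leaving out 1, 7, 0 and 6 non-uniform spots, and each array's 75th percentile over 45598 probes was subtracted. The software marked 37.5% to 40.9% of probes as well above background, and a probe counted as marked where at least 0.5 of its spots were. Accessions without version were looked up in RefSeq's GRCr8 gene table, for names and gene order alone, which named 21109 probes (46.3%). The file headers give the array design's build as rn4, so no probe coordinates are given.

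The brightest probe by mean stood for a gene, which counted as detected where any of its probes was. The variance test used lmFit and squeezeVar of limma 3.58.1 in R 4.3.3, with a trend on level (prior degrees of freedom 6.50), Benjamini-Hochberg adjustment over all genes and a threshold of 0.05. On simulated data it made no false call, but it missed even large excesses of spread and found only part of the very large ones. All arrays share 1 slide and 1 scan, so a slide effect cannot be fitted. With 4 arrays every SD is imprecise. Alternatives were another background correction (normexp with an offset of 50), 3 other scalings, all probes of a gene, other filters and priors, and leaving out each replicate. The genes and lists were chosen with earlier results of these data known. Named from the lists were the first 3 detected genes of each, any past the threshold, and the names behind a count of 5 or fewer; other names were chosen after their values were seen.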

Additional observations from a re-analysis of the deposited data

Results flagged for a closer look

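Each of 74 profiles, the 8 probes of the inflammasome genes detected on all arrays and the 66 surrounding genes detected on all arrays, was screened for 1 array far from the other 3 by Dixon's ratio, the gap to the nearest array divided by the whole range. In 4 of them the ratio passed Dixon's critical value, and chance gives about 1 in 20. None was an inflammasome gene. The kinase gene Nek6 had a ratio of 0.886, with 3.15 on replicate 1 against 3.51 to 3.55 on the others. Ninj1 had a ratio of 0.856, with 3.63 on replicate 1 against 4.35 to 4.47, and an adjusted p of 0.484 in the variance test (limma). Nlrp1a had a ratio of 0.859, with -0.86 on replicate 2 against -1.34 to -1.27. The cation channel gene Trpm2 had a ratio of 0.894, with 0.077 on replicate 2 against -0.19 to -0.16.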

How the results depend on the processing

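The count of 6 inflammasome genes detected on all arrays was 6 with only the brightest probe of a gene, 6 without each replicate in turn and 7 with the weaker detection mark. The first 2 of these checks could not have changed it. Only Nlrp3 had several probes, all detected on every array, and the measured genes outside the 6 were detected on at most 1 array. The count of 0 inflammasome genes past the variance test (limma) was 0 in all 13 alternatives. This says little about stability, because the test has little power and in some settings at most 1 of all genes passed. The number of all genes past that test moved widely, from 69 to 237 with normexp on median signals, 1 with the percentile over all spots, 1 with quantile normalization, 0 with the percentile over detected probes (721 at an unadjusted p under 0.05), 207 with a robust prior, 356 without the filter for dim genes and 0 with a prior without trend (897 at an unadjusted p under 0.05). Without each replicate in turn it lay between 27 and 166. It was 89 without replicate 1, 27 without replicate 2, 166 without replicate 3 and 43 without replicate 4. The cause was not tested. A level's position against 0 follows the scaling. Nlrp3 had 1.21 in the scaling used, 0.69 with normexp, -1.15 with the percentile over all spots and -2.31 with that over detected probes, and -0.34 as the mean over its 3 probes. The normexp setting and the percentile over all spots were chosen after seeing the data. Normexp on mean signals was planned and not run, because the columns used here give median signals. No paired analysis was possible because there is only 1 group.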

Other observations

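Of the 18 measured genes listed for purine receptors, ATP handling and ion channels, 11 (61.1%) were detected on all arrays, beside 48% of all named genes. P2rx1, P2rx2, P2rx3, P2rx5, P2rx6, Panx2 and Panx3 were detected on none. The genes named next were chosen after their values were seen. The potassium channel genes Kcnk6 and Kcnk13 had mean levels of 3.39 ± 0.15 (SD, n = 4) and 1.53 ± 0.14. The chloride channel gene Clic1 had 6.52 ± 0.15, the cation channel genes Trpv2 and Trpm2 7.35 ± 0.14 and -0.11 ± 0.13, and the mechanosensitive channel gene Piezo1 5.61 ± 0.10. The cytokine antagonist gene Il1rn, which blocks the interleukin-1 receptor, had 5.82 ± 0.13, and Il18bp, whose product binds interleukin-18, 0.52 ± 0.11. The interferon-induced GTPase gene Gbp2 had levels of 3.69, 3.67, 3.72 and 3.70 on replicates 1 to 4, and Gbp5, a GTPase described as a promoter of NLRP3 assembly, 0.49, 0.15, 0.46 and 0.97.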
